A study of Mus musculus with 10 samples.

Results

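Interferon-stimulated genes are the genes that cells switch on when interferon or a sensor of foreign nucleic acid is engaged, and 43 of them, listed by symbol, are described here in cultured mouse cerebellar granule cell precursors. Of the 43, 41 had a probe set of their own on the array, out of 18193 genes with one, and each is given by its brightest probe set over all 10 arrays. Isg15 shared its probe set with another gene and no listed probe set carried Ifi44, so both were not analysed here. Type I interferons act through the receptor chains Ifnar1 and Ifnar2 and the kinases Jak1 and Tyk2, which activate a complex with Stat2 and Irf9 that binds the interferon-stimulated response element (ISRE) in promoters. The induced proteins block steps of viral replication, sense RNA and DNA, and feed back on the pathway itself. In the brain, microglia are known as strong responders, and neurons, astrocytes and endothelial cells can respond as well.

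The arrays came from 4 groups: Bmi1 knockout (KO) cultures with sonic hedgehog (Shh, 2 arrays), wild type (WT) cultures with Shh (2 arrays), untreated KO cultures (3 arrays) and untreated WT cultures (3 arrays). Bmi1 encodes a subunit of Polycomb repressive complex 1, and Shh is the main mitogen of these precursors. Pups were 5 to 7 days old, culture lasted 24 hours in a medium that held 10% fetal calf serum and 20 mM KCl, and Shh, labelled as 3 mg/ml, was present for 24 hours. The sources used here do not say whether untreated cultures were held as long as treated ones, so added protein and time in culture cannot be told apart. The label note on WT replicate 3 mentions Shh where applicable, but its title names no treatment, and it was grouped as untreated. Nor do they give the deleted stretch of Bmi1, the origin of the mice or the number of animals per culture, so p-values measure the spread between these cultures only.

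Values are MAS5 signals on a linear scale, on which each array has a trimmed mean of 500. Signals under 20.9, the 25th percentile of all values, were raised to that floor before log2 was taken, and "below the floor" means under it. The median signal was 71.9 to 72.3 on KO arrays with Shh, 66.8 to 71.3 on WT arrays with Shh, 85.3 to 89.9 on untreated KO arrays and 84.8 to 91.2 on untreated WT arrays. The brighter Bmi1 probe set read 3424 ± 11.8 in KO and 4340 ± 248 in WT cultures with Shh (SD, n = 2 each), and 3610 ± 259 in KO and 3958 ± 290 in WT untreated cultures (SD, n = 3 each). It lay near the WT level in KO cultures and does not check the genotype labels. The 18S ribosomal control was 6301 on the array of untreated KO replicate 6 and 2030 on that of untreated WT replicate 1, against at most 649 on the others. Summed markers of granule cell precursors (8 genes, among them Atoh1, Zic1 and Barhl1) were 48965 to 49330 in KO with Shh, 49993 to 51024 in WT with Shh, 46000 to 48293 in untreated KO and 44212 to 55204 in untreated WT cultures.

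The ISRE, searched as GAAANNGAAA on both strands, was found between 250 bases before and 50 bases after an annotated start in 17 of the 32 listed genes that RefSeq's GRCm38.p6 promoter table held, which is 53.1%, against 3.99% of 27025 genes in that table. The letters of the GAS element, TTCNNNGAA, found at genes that interferon gamma induces, were present for 10 of 32 members (31.2%), against 9.55% of all genes. Of the 22 members called higher with Shh in WT cultures, 18 had a promoter window and 10 of those held ISRE letters, and of the 2 called lower 1 of 2 did. Promoters of 4 members are shown, each read 5′ to 3′ on the gene's strand with ISRE letters of either strand in capitals: Irgm1 (chr11:48871371-48871670, minus strand) and Lgals9 (chr11:78984875-78985174, minus strand), the 2 members called lower in KO than in WT cultures with Shh, and the nearby genes Ifitm3 (chr7:141010695-141010994, minus strand) and Ifitm2 (chr7:140955912-140956211, minus strand), which changed in opposite directions with Shh.
Irgm1: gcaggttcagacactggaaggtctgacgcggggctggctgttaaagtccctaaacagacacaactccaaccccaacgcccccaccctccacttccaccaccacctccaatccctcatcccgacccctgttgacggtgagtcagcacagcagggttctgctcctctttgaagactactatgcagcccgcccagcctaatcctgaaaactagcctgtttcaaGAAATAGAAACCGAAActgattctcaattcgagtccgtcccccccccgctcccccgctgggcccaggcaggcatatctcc
Lgals9: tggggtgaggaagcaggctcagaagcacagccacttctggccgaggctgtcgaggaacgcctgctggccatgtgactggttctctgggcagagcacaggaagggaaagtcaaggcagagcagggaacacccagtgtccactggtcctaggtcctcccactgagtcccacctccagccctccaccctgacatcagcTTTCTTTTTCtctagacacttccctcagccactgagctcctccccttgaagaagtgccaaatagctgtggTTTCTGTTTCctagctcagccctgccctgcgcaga
Ifitm3: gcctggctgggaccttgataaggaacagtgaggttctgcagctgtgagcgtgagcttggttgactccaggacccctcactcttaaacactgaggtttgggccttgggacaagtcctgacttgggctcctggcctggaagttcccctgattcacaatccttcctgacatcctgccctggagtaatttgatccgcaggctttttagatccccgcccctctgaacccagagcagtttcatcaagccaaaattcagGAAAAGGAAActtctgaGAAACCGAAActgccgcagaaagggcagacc
Ifitm2: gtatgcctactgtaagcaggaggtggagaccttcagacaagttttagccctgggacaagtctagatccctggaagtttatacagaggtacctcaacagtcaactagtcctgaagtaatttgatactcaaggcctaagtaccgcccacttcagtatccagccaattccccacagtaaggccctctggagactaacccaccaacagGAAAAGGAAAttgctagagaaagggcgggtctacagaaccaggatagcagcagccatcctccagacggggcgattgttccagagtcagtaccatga
Overlapping matches run together in the capitals of Irgm1. A match of letters is a description and not a binding site.

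Shh-treated cultures of both genotypes carried far more transcript of most members than untreated ones. In the fit over all 18193 genes without a filter, which holds all 41 measured members, 27 members were higher and 2 lower with Shh in KO cultures, where 6.73% of all genes were called higher and 10.4% lower (limma, adjusted p under 0.05). In WT cultures 32 were higher and 2 lower, against 8.77% and 12.4% of all genes. The median log2 difference (Shh minus untreated) over the 41 members was 1.70 in KO and 2.29 in WT cultures, and over the 11405 genes of the main test it was -0.01 in each genotype. The main test kept genes whose mean signal reached 76.1, and 27 members passed. Of these, 10 had an untreated mean under that limit and passed through their Shh arrays, so counts over the 27 describe these genes only. Among the 27, 21 were called higher and 3 lower in KO cultures (11% and 17% of the 11405 genes tested), and 22 higher and 2 lower in WT cultures (14% and 19.8%). The summed signal of the 41 members was 17810 to 18588 in KO with Shh, 26953 to 26960 in WT with Shh, 8033 to 8415 in untreated KO and 7346 to 8178 in untreated WT cultures.

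**Figure D1:**
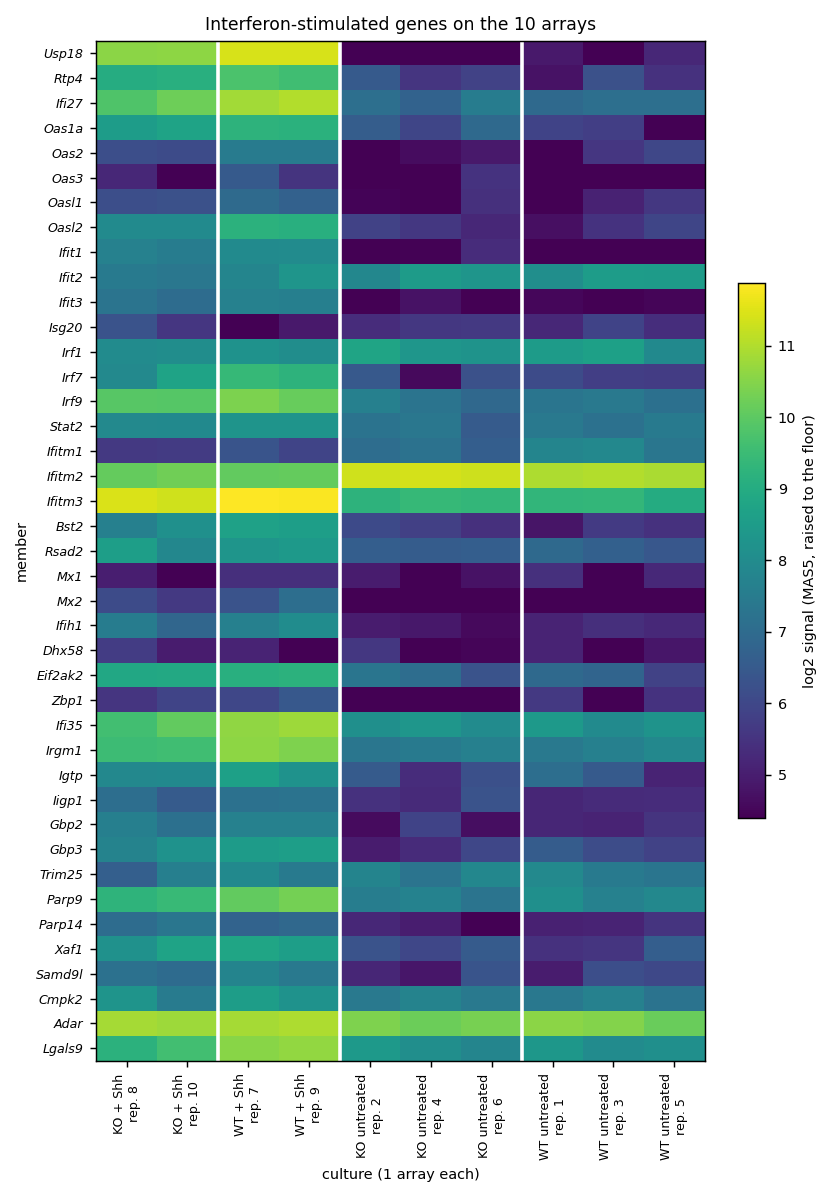
Signal of the 41 measured members on each of the 10 arrays, as log2 of the signal raised to the floor (colour scale), 1 column per culture and 1 row per gene, grouped as KO with Shh, WT with Shh, untreated KO and untreated WT. Most rows are brightest in the WT columns with Shh, next in the KO columns with Shh and dark in the untreated columns, while Ifitm1, Ifitm2 and Ifit2 run the other way.

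Among transcription factors and feedback genes, 4 of the 5 measured rose with Shh in each genotype. Usp18, the protease that takes Isg15 off proteins and blunts signalling at Ifnar2, read 1509 and 1554 in KO and 2722 and 2764 in WT cultures with Shh. Without Shh it was below the floor in all 3 KO cultures and in 1 WT culture, with 29.7 and 37.3 in the other WT cultures. All Shh arrays thus lay far above all untreated ones. The rise was at least 73.2-fold in KO cultures (log2 6.19, SE 0.20, limma adjusted p = 2.1e-07) and, with 1 untreated array at the floor, at least 96.2-fold in WT cultures (log2 6.59, SE 0.20, adjusted p = 2.06e-07).

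Irf7, the factor that amplifies type I interferon production, had signals of 242 and 426 in KO and 682 and 604 in WT cultures with Shh, against 89.4, 23.7 and 75.3 in untreated KO and 67.9, 54.6 and 52.9 in untreated WT cultures. It rose 5.92-fold in KO (log2 2.56, SE 0.49, adjusted p = 0.00489) and 11.05-fold in WT cultures (log2 3.47, SE 0.49, adjusted p = 0.000842), with no overlap between Shh and untreated arrays. Irf9, the DNA-binding subunit of the ISRE complex, was at 984 and 959 in KO and 1341 and 1134 in WT cultures with Shh, and at 199, 155 and 122 in untreated KO and 157, 169 and 142 in untreated WT cultures. Its rise was 6.24-fold in KO (adjusted p = 2.87e-05) and 7.91-fold in WT cultures (adjusted p = 1.06e-05). Stat2, its partner in that complex, stood at 241 and 244 in KO and 309 and 306 in WT cultures with Shh, against 152, 162 and 93.6 in untreated KO and 170, 145 and 175 in untreated WT cultures. That smaller rise, 1.84-fold in KO (adjusted p = 0.014) and 1.89-fold in WT (adjusted p = 0.00929), was lost without either Shh array of the genotype concerned. Irf1, a factor that interferon gamma induces, read 258 and 268 in KO and 295 and 265 in WT cultures with Shh, and 437, 322 and 298 in untreated KO and 361, 396 and 244 in untreated WT cultures. It passed no test (adjusted p = 0.205 in KO and 0.463 in WT for Shh), and in KO its Shh arrays lay below all untreated ones.

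Sensors of nucleic acid and their kinase and editing partners were mixed: over the 6 measured, 4 were higher in KO and 3 in WT cultures with Shh in the fit without a filter. Eif2ak2, the kinase PKR that halts translation on double-stranded RNA, read 468 and 475 in KO and 547 and 586 in WT cultures with Shh, against 158, 134 and 79.0 in untreated KO and 123, 112 and 58.6 in untreated WT cultures. It rose 3.98-fold in KO (adjusted p = 0.00284) and 6.09-fold in WT cultures (adjusted p = 0.000567), without overlap. Ifih1, the RNA sensor MDA5, lay under the main filter, with 186 and 117 in KO and 202 and 261 in WT cultures with Shh, and 31.3, 29.0 and 23.7 in untreated KO and 35.4, 42.3 and 38.3 in untreated WT cultures. Its log2 difference was 2.40 in KO (adjusted p = 0.00112) and 2.57 in WT (adjusted p = 0.000658) in the fit without a filter.

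Adar, which edits adenosine in double-stranded RNA, was bright throughout, at 1854 and 1737 in KO and 1854 and 1970 in WT cultures with Shh, against 1373, 1159 and 1284 in untreated KO and 1532, 1438 and 1140 in untreated WT cultures. A rise of 1.41-fold was called in each genotype (adjusted p = 0.0248 in KO, lost without any 1 of replicates 4, 6, 8 and 10, and 0.0224 in WT, lost without any 1 of replicates 5, 7 and 9). The WT call was also lost with the mean of all probe sets and with only the groups compared. Its 3 probe sets disagreed, with log2 differences of 0.50, 1.09 and -0.51 in KO and 0.49, 1.21 and -0.98 in WT cultures. Trim25, the ubiquitin ligase of the RIG-I pathway, was tested and not called, with signals between 101 and 246 over all arrays. Zbp1 and Dhx58 stayed at 87.3 or less on every array. In the fit without a filter Zbp1 was narrowly called higher with Shh in KO cultures (log2 at least 1.34, limma adjusted p = 0.0499). All 3 untreated KO arrays were below the floor for it. In WT cultures Zbp1 was not called (log2 at least 1.05, adjusted p = 0.0902).

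Of the 2-5A synthetase group, 6 were measured, and 2 were higher in KO and 5 in WT cultures with Shh in the fit without a filter. The synthetases make the second messenger that activates RNase L. Oasl1 and Oasl2 are named as synthetase-like, and Isg20 is an exonuclease. Oasl2 read 250 and 253 in KO and 584 and 558 in WT cultures with Shh, against 57.9, 48.2 and 37.3 in untreated KO and 26.1, 44.97 and 61.5 in untreated WT cultures. It rose 5.35-fold in KO (log2 2.42, SE 0.31, adjusted p = 0.000653) and 13.7-fold in WT cultures (log2 3.78, SE 0.31, adjusted p = 4.1e-05). Oas1a had 365 and 425 in KO and 599 and 578 in WT cultures with Shh. Its untreated signals were 96.9, 61.3 and 123 in KO, and 59.8, 54.7 and below the floor in WT cultures. The rise was 4.38-fold in KO (adjusted p = 0.00615) and at least 14.4-fold in WT cultures (adjusted p = 0.000231), as a ratio of geometric means with 1 untreated WT array set at the floor.

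Oas2, under the main filter, had 72.6 and 68.2 in KO and 181 and 181 in WT cultures with Shh. Without Shh it had 24.996 and 29.7 in KO with 1 array below the floor, and 47.5 and 63.4 in WT with 1 array below the floor. Oas3, also under the filter, had 37.3 and below the floor in KO and 90.3 and 45.8 in WT cultures with Shh, and was below the floor on all untreated arrays but KO replicate 6 (44.3). Neither Oas2 (adjusted p = 0.057) nor Oas3 (adjusted p = 1) was called with Shh in KO cultures in the fit without a filter, and both were in WT cultures (0.0131 and 0.0426). Isg20 had 79.7 and 47.3 in KO, and below the floor and 30.0 in WT cultures with Shh. Its untreated signals were 40.2, 48.2 and 49.9 in KO and 36.9, 59.9 and 41.2 in WT cultures, so that the Shh arrays lay below the untreated ones in WT and overlapped them in KO cultures.

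The IFIT proteins, which bind viral RNA and restrain its translation, did not move alike. Ifit1, under the main filter, read 204 and 185 in KO and 250 and 258 in WT cultures with Shh, while every untreated array was below the floor except KO replicates 4 (21.7) and 6 (40.4). Its Shh difference was called in the fit without a filter in KO (log2 2.88, adjusted p = 0.00107) and in WT cultures, where it was at least 12.1-fold (adjusted p = 0.000375). Ifit3 showed the same order, with 155 and 131 in KO and 205 and 198 in WT cultures with Shh, and at most 26.8 on any untreated array. Ifit2 ran the other way, at 176 and 163 in KO and 222 and 312 in WT cultures with Shh, against 230, 362 and 312 in untreated KO and 272, 370 and 365 in untreated WT cultures. It fell by 0.80 on the log2 scale in KO cultures (SE 0.22, adjusted p = 0.026), a call lost without any 1 of replicates 4, 6, 8 and 10. That call was also lost with quantile normalization and with no filter (limma adjusted p = 0.067). In WT cultures Ifit2 was not called (log2 -0.34, adjusted p = 0.278). Whether the 2 genotypes differ in this was tested by the interaction, which was not called for Ifit2 or any other member.

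Rsad2 (viperin, an enzyme that makes a chain-terminating nucleotide) had 387 and 233 in KO and 316 and 338 in WT cultures with Shh, and 98.4, 95.7 and 99.3 in untreated KO and 122, 103 and 85.1 in untreated WT cultures. It rose 3.07-fold in KO (adjusted p = 0.000672) and 3.20-fold in WT (adjusted p = 0.000414). Its genomic neighbour Cmpk2, a mitochondrial nucleotide kinase, had 307 and 183 in KO and 372 and 294 in WT cultures with Shh, and 172, 212 and 169 in untreated KO and 167, 206 and 152 in untreated WT cultures. A rise of 1.91-fold in WT cultures was called (adjusted p = 0.013) and was lost without replicate 7 or with the mean of its probe sets, and in KO cultures the arrays overlapped (adjusted p = 0.266).

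Xaf1, a pro-apoptotic antagonist of XIAP, stood at 289 and 421 in KO and 439 and 382 in WT cultures with Shh, against 79.1, 63.2 and 93.0 in untreated KO and 43.6, 46.9 and 99.1 in untreated WT cultures. It rose 4.50-fold in KO (adjusted p = 0.00174) and 6.97-fold in WT cultures (adjusted p = 0.000353). Its other probe set differed by -0.13 in KO and 0.17 in WT cultures (log2). Samd9l, an antiviral and growth-restraining protein, had 145 and 128 in KO and 218 and 172 in WT cultures with Shh, and 36.4, 28.9 and 80.5 in untreated KO and 31.1, 72.7 and 63.9 in untreated WT cultures. The call of its 3.10-fold rise in KO (adjusted p = 0.0253) was lost without any 1 of replicates 2, 4, 8 and 10 or with no filter (limma adjusted p = 0.0751). That of its 3.69-fold rise in WT (adjusted p = 0.0114) was lost without replicate 7. Mx2, a dynamin-like antiviral GTPase, was below the floor on all 6 untreated arrays and had 68.6 and 49.5 in KO and 78.4 and 137 in WT cultures with Shh. Mx1, its paralogue, stayed at 43.01 or less on every array.

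Membrane and transport factors moved in both directions with Shh, with 4 of 6 higher and 2 of 6 lower in each genotype. Ifitm3, which blocks fusion of viruses in endosomes, had 2816 and 2587 in KO and 3752 and 3605 in WT cultures with Shh, against 594, 672 and 650 in untreated KO and 641, 651 and 514 in untreated WT cultures. It rose 4.23-fold in KO (log2 2.08, SE 0.12, adjusted p = 1.08e-05) and 6.14-fold in WT cultures (log2 2.62, SE 0.12, adjusted p = 2.38e-06). Ifitm2, its close relative, had 1111 and 1206 in KO and 1075 and 1105 in WT cultures with Shh, and 2561, 2673 and 2512 in untreated KO and 1999, 2056 and 1958 in untreated WT cultures. It fell by 1.16 in KO (SE 0.09, adjusted p = 3.59e-05) and by 0.88 in WT cultures (SE 0.09, adjusted p = 0.000109) on the log2 scale. Ifitm1 fell as well, by 1.30 in KO (adjusted p = 0.00257) and by 1.54 in WT cultures (adjusted p = 0.000831), with 49.6 and 51.6 in KO and 80.0 and 60.8 in WT cultures with Shh and 134, 147 and 97.7 in untreated KO and 221, 237 and 159 in untreated WT cultures. Members of this family have similar sequences, so a probe set of 1 may hold signal of another.

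Rtp4, a transport protein that also restrains RNA viruses, had 525 and 551 in KO and 856 and 770 in WT cultures with Shh, against 91.3, 46.3 and 57.8 in untreated KO and 26.9, 76.2 and 43.6 in untreated WT cultures. It rose 8.60-fold in KO (adjusted p = 0.000634) and 18.2-fold in WT cultures (adjusted p = 9.17e-05). Bst2 (tetherin), which holds budding virions at the membrane, had 200 and 283 in KO and 408 and 380 in WT cultures with Shh, and 66.6, 56.4 and 42.9 in untreated KO and 28.1, 50.6 and 44.3 in untreated WT cultures. Its rise was 4.38-fold in KO (adjusted p = 0.000617) and 9.90-fold in WT (adjusted p = 3.94e-05). Lgals9, a galectin that binds glycans on cell surfaces and whose promoter is printed above, had 588 and 777 in KO and 1502 and 1618 in WT cultures with Shh, and 349, 270 and 221 in untreated KO and 326, 254 and 275 in untreated WT cultures. It rose 2.46-fold in KO (log2 1.30, adjusted p = 0.00166) and 5.50-fold in WT cultures (log2 2.46, adjusted p = 3.82e-05). In all 3 genes the order was WT with Shh, then KO with Shh, then untreated, without overlap between these steps.

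All 5 interferon-inducible GTPases were called higher with Shh in WT and 4 of 5 in KO cultures in the fit without a filter. These proteins attack the vacuoles of intracellular pathogens. Irgm1, which regulates the other immunity-related GTPases, had 730 and 771 in KO and 1551 and 1380 in WT cultures with Shh, against 159, 175 and 199 in untreated KO and 170, 202 and 236 in untreated WT cultures. It rose 4.24-fold in KO (log2 2.08, SE 0.15, adjusted p = 3.05e-05) and 7.29-fold in WT cultures (log2 2.87, SE 0.15, adjusted p = 3.88e-06). Igtp (Irgm3) had 237 and 244 in KO and 402 and 293 in WT cultures with Shh, and 93.2, 40.6 and 74.0 in untreated KO and 137, 90.3 and 34.9 in untreated WT cultures. It rose 3.68-fold in KO (adjusted p = 0.0263, lost without any 1 of replicates 4, 6, 8 and 10 or with no filter) and 4.54-fold in WT cultures (adjusted p = 0.0114, lost without replicate 7). Gbp3, a guanylate-binding protein, had 215 and 296 in KO and 359 and 387 in WT cultures with Shh, and 31.3, 40.0 and 63.7 in untreated KO and 95.2, 69.5 and 58.0 in untreated WT cultures. Its rise was 5.86-fold in KO (adjusted p = 0.000426) and 5.13-fold in WT (adjusted p = 0.000458). For Gbp2 and Iigp1, both under the main filter, all 4 Shh arrays (143 to 206 and 92.0 to 151) lay above all untreated ones (24.5 to 59.2 and 36.4 to 78.8).

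Of the remaining 4 measured members all were higher with Shh in both genotypes. Ifi27, a small mitochondrial membrane protein, had 899 and 1203 in KO and 1817 and 2071 in WT cultures with Shh, against 139, 107 and 184 in untreated KO and 123, 139 and 138 in untreated WT cultures. It rose 7.41-fold in KO (adjusted p = 3.48e-05) and 14.6-fold in WT (adjusted p = 5.03e-06), and its other probe set gave log2 differences of 3.54 and 4.27. Ifi35, a partner of Nmi, had 784 and 1082 in KO and 1596 and 1750 in WT cultures with Shh, and 277, 321 and 255 in untreated KO and 344, 248 and 302 in untreated WT cultures, a rise of 3.25-fold in KO (adjusted p = 0.00024) and 5.65-fold in WT (adjusted p = 2.01e-05). The other probe sets of Ifi35 gave smaller log2 differences in KO (1.13 and 0.80), and 1.40 and 2.77 in WT cultures. The dimmest of them had 1 array below the floor. Parp9, an ADP-ribosyltransferase that works with Dtx3l, had 608 and 686.2 in KO and 1068 and 1271 in WT cultures with Shh, and 190, 207 and 154 in untreated KO and 279, 205 and 236 in untreated WT cultures. The rise was 3.54-fold in KO (adjusted p = 0.000116) and 4.89-fold in WT (adjusted p = 2.22e-05). Parp14, under the main filter, had 130 and 160 in KO and 109 and 120 in WT cultures with Shh, and 45.5 or less on every untreated array.

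**Figure D2:**
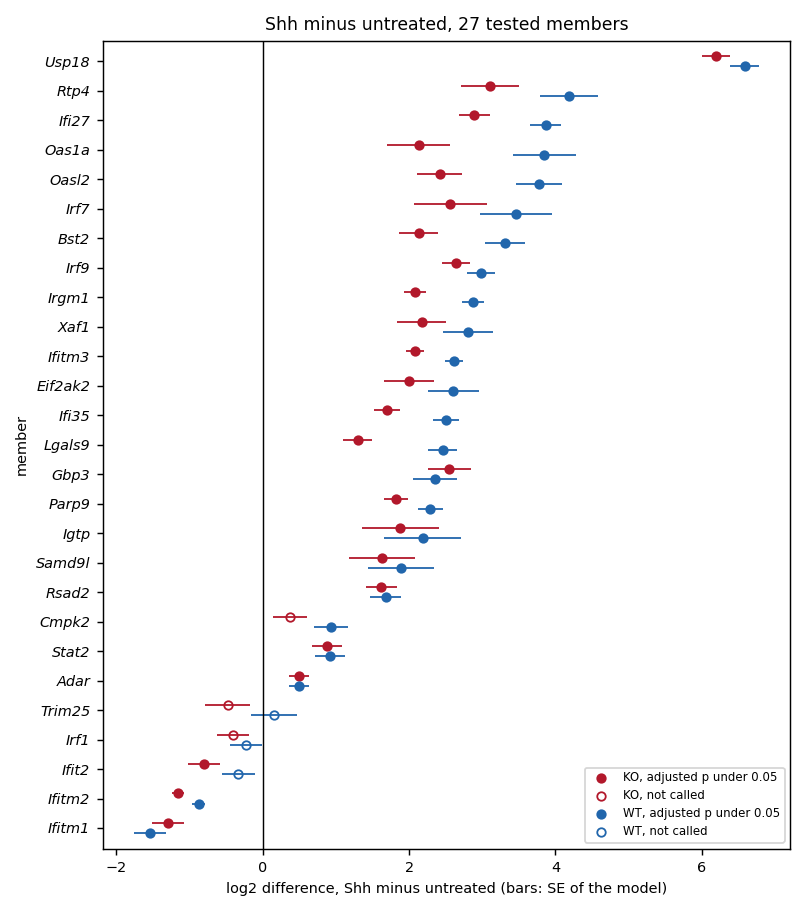
Difference between Shh and untreated cultures for the 27 tested members, in log2 units, with KO in red and WT in blue, bars for the standard error of the model and filled points for an adjusted p under 0.05. Usp18 lies at 6.19 in KO and 6.59 in WT, most members lie between 1 and 4, and Ifitm1, Ifitm2 and Ifit2 lie below 0.

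With Shh, most members read lower in KO than in WT cultures, with Lgals9 at 43.3% and Irgm1 at 51.3% of the WT level, but only those 2 passed the test. Over all 41 measured members, 37 had a log2 difference (KO minus WT) below 0, against 46.5% of genes tested, and the median was -0.51, against 0.01 over the 11405 genes tested. The 2 KO arrays lay below both WT arrays for 32 members and above them for 3 (Ifitm2, Isg20 and Parp14), where 13.9% of all 18193 genes were lower without overlap and 18% higher. By limma over 11405 genes, 2 of the 27 tested members were called lower (Irgm1 and Lgals9) and 0 higher, against 0.114% and 0.614% of genes tested. At an unadjusted p under 0.05 there were 10 of 27 members, against 9.76% of genes. Counts over the 27 again describe the tested members only, as 10 of them passed the filter through their Shh arrays. In the fit over all 18193 genes 0 of 41 members were called lower and 0 higher, against 0.143% and 0.357% of genes.

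Irgm1, at 730 and 771 in KO against 1551 and 1380 in WT cultures with Shh, stood at 51.3% of the WT level (log2 -0.96, SE 0.16, adjusted p = 0.0375). Lgals9, at 588 and 777 in KO against 1502 and 1618 in WT cultures, stood at 43.3% (log2 -1.21, SE 0.22, adjusted p = 0.04996). Both calls are fragile: over the alternatives, the adjusted p ranged from 0.0182 to 0.187 for Irgm1 and from 0.0116 to 0.261 for Lgals9, and without any 1 of replicates 3, 4, 7, 8, 9 and 10 neither was called. The call of Irgm1 was also lost without replicate 2 or 6, and that of Lgals9 without replicate 1 or 5. Oasl2, at 250 and 253 in KO against 584 and 558 in WT cultures, was at 44.1% and not called (log2 -1.18, SE 0.34, adjusted p = 0.219). Usp18 was at 55.8% (log2 -0.84, adjusted p = 0.157), Ifi27 at 53.6% (-0.90, adjusted p = 0.162), Ifi35 at 55.1% (-0.86, adjusted p = 0.113) and Parp9 at 55.4% (-0.85, adjusted p = 0.0959). In all 5 the KO arrays lay below the WT arrays, and the calls were missed. Irf7 had 242 and 426 in KO against 682 and 604 in WT cultures (log2 -0.999, SE 0.54, adjusted p = 0.619). The widest gaps among members under the filter were those of Oas2 (log2 -1.36) and Oas3 (log2 -1.20) below 0 and of Isg20 (log2 1.29) above it.

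**Figure D3:**
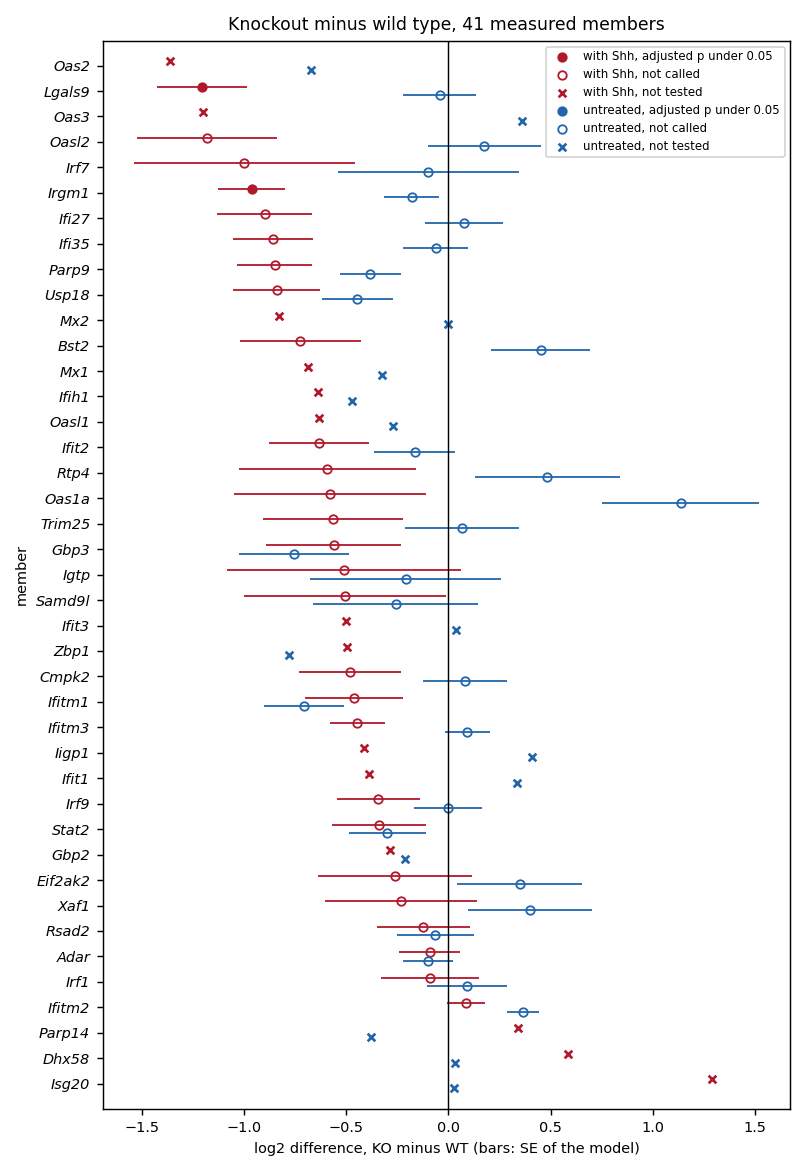
Difference between KO and WT cultures for the 41 measured members, in log2 units, with Shh in red and untreated in blue, bars for the standard error of the model, filled points for an adjusted p under 0.05 and crosses for members under the filter. Most red points lie left of 0, with Lgals9 and Irgm1 filled, whereas the blue points lie on both sides of 0 with none filled.

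Without Shh, KO and WT cultures carried similar levels of most members. The median log2 difference (KO minus WT) was -0.04 over the 41 members, against 0.02 over all genes tested. Of the 27 tested members, 0 were called higher and 0 lower by limma, against 0.324% and 0.0526% of genes, and 6 of 27 reached an unadjusted p under 0.05, against 8.68% of genes. The arrays were apart for 4 of 41 members, 2 higher (Oas1a and Ifitm2) and 2 lower (Ifitm1 and Ifih1), against 5.99% and 4.62% of all genes. Ifitm2 was higher in all 3 KO cultures (2561, 2673 and 2512) than in the 3 WT cultures (1999, 2056 and 1958), by 0.37 (log2, SE 0.08, adjusted p = 0.128). In the fit without a filter it was called (adjusted p = 0.0399), as 1 of 41 members higher and 0 lower, against 0.209% and 0.033% of genes. Ifitm1 was lower in KO (134, 147 and 97.7) than in WT cultures (221, 237 and 159), by -0.71 (log2, SE 0.20, adjusted p = 0.287). Oas1a was higher in KO (96.9, 61.3 and 123) than in WT cultures (59.8, 54.7 and below the floor), by at least 1.14 (difference of mean log2 signals, SE 0.38, adjusted p = 0.411).

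Whether the response to Shh differed between the genotypes was tested by the interaction, the Shh difference in KO minus that in WT cultures. Its median over 41 members was -0.47, with 34 below 0 (49.8% of genes tested), but limma called 0 of 27 tested members, against 0.00877% of genes. At an unadjusted p under 0.05 there were 9 of 27 members, all with a smaller rise or a larger fall in KO cultures, against 4.92% of genes. Because 10 of the 27 passed the filter through their Shh arrays, these counts describe the tested members only. The lowest adjusted p was that of Lgals9, 0.668 (log2 -1.16, SE 0.28), and next came Irgm1 with 0.686 (log2 -0.78, SE 0.21). Averaged over both conditions, 2 of 27 members were called lower in KO cultures (against 0.324% of genes) and 0 higher (against 1.22%): Irgm1 by -0.57 (log2, SE 0.11, adjusted p = 0.0365) and Parp9 by -0.62 (log2, SE 0.12, adjusted p = 0.0406). With consecutive culture numbers as a replicate block, Parp9 was no longer called (adjusted p = 0.069), while Ifitm1 (0.0411) and Lgals9 (0.0487) were. Leaving out any 1 of replicates 4, 5, 7, 8, 9 and 10 left 0 members called, and without replicate 1, 2 or 6 there was 1. Without replicate 1 or 6 that member was Irgm1, and without replicate 2 it was neither Irgm1 nor Parp9. The call of Irgm1 was also lost without replicate 3.

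**Figure D4:**
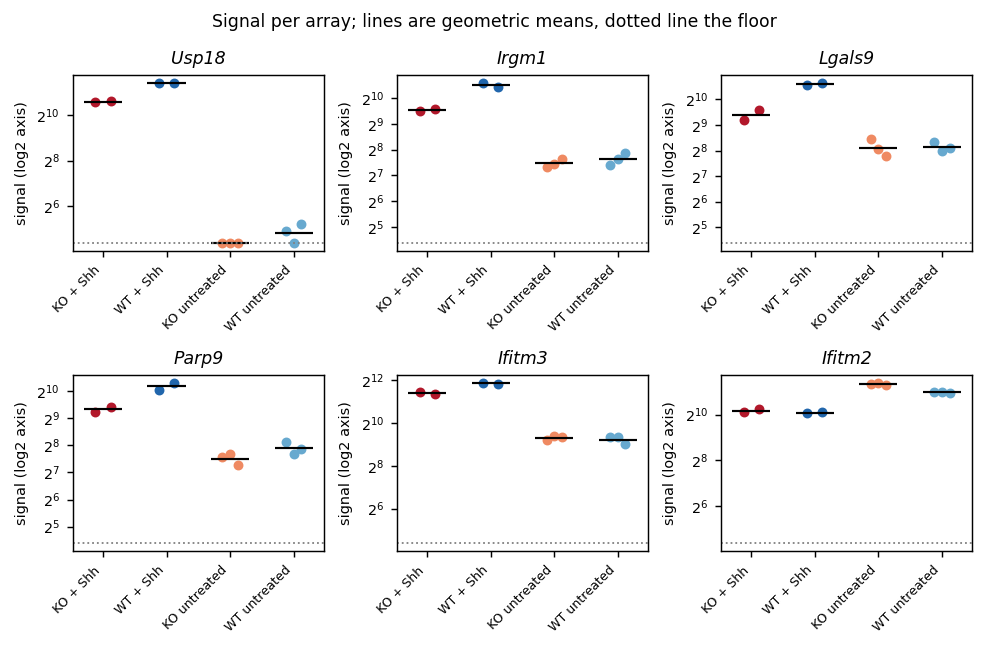
Signal on each array for Usp18, Irgm1, Lgals9, Parp9, Ifitm3 and Ifitm2, on log2 axes, with groups from left KO with Shh, WT with Shh, untreated KO and untreated WT, lines for geometric means and a dotted line for the floor of 20.9. In the first 5 genes the WT points with Shh are highest, the KO points with Shh next and the untreated points lowest, and in Ifitm2 the untreated KO points are highest.

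Genes that carry or control the interferon signal were counted beside the members. Of 42 such genes listed, 36 had a probe set and 24 were tested. All 6 ligands measured (Ifnb1, Ifng, Ifna1, Ifna2, Ifna4 and Ifna5) lay under the filter, and Ifna4 was below the floor on all 10 arrays. Ifnb1 averaged 39.6 in KO and 24.0 in WT cultures with Shh, and 24.0 in KO and 28.1 in WT untreated cultures. The type I receptor chains Ifnar1 and Ifnar2 were above the floor on every array and were not called in any of these comparisons. With Shh, 4 of 24 rose in KO (Stat3, Ddx58, Tbk1 and Pias1) and 3 in WT cultures (Ddx58, Tbk1 and Pias1), and 1 fell in each genotype. Of all genes tested, 11% were higher and 17% lower in KO and 14% higher and 19.8% lower in WT cultures, so the rises were near the share of all genes and say nothing particular of this list. Ddx58, the RNA sensor RIG-I and itself inducible by interferon, rose by 2.06 in KO (adjusted p = 0.000256) and by 2.32 in WT (log2, adjusted p = 9.65e-05). Ifngr2, a chain of the interferon gamma receptor, fell by 0.81 in KO cultures (log2, adjusted p = 0.00427), and Socs3, an inhibitor of Jak signalling, fell by 1.09 in WT cultures (log2, adjusted p = 0.0149). Between genotypes 0 of 24 were called with or without Shh.

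Outside the members, 39 interferon-induced genes were counted as well, of which 37 had a probe set and 21 were tested. With Shh, 13 of 21 rose and 0 fell in KO cultures, and 15 of 21 rose and 0 fell in WT cultures, with median log2 differences of 0.95 and 1.04, against 11% of genes higher and 17% lower in KO and 14% and 19.8% in WT cultures. Of the 21, 4 (Herc6, Slfn2, Cxcl10 and Ccl5) had an untreated mean under the filter and passed through their Shh arrays, so these counts describe the tested genes only. The chemokine Ccl5 rose by 5.69 in KO (adjusted p = 2.84e-07) and by 6.13 in WT cultures (log2, adjusted p = 2.24e-07). Antigen presentation genes were among them: B2m rose by 1.02 in KO (adjusted p = 0.00065) and by 1.13 in WT (log2, adjusted p = 0.000283). Between genotypes 0 of 21 were called with or without Shh. With Shh, KO arrays lay below WT arrays for 11 of the 21, against 16.8% of genes tested, with a median log2 difference of -0.27.

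Markers of other cells moved with these groups, and in bulk cultures fewer cells of a type and less RNA per cell cannot be told apart. Microglia and macrophage markers (19 genes) summed to 5746 to 7565 in KO with Shh, 8915 to 9187 in WT with Shh, 9102 to 10172 in untreated KO and 10507 to 15107 in untreated WT cultures. They were thus lower in KO than in WT cultures in both conditions, without overlap of the sums. Of 17 tested, C1qa alone was called lower in KO cultures with Shh (log2 -1.25, limma adjusted p = 0.0111), against 0.114% of genes tested. Without overlap 12 of 17 were lower, against 16.8% of genes tested. Averaged over both conditions, the comparison in which Irgm1 and Parp9 were called, C1qa, C1qb and C1qc were called lower in KO cultures (log2 -0.84, -0.87 and -0.87, adjusted p = 0.00519, 0.048 and 0.0246). In that comparison 0.324% of genes tested were called lower. All 17 had a difference below 0 in each condition, against 5306 of 11405 genes tested with Shh and 5062 of 11405 untreated. With Shh the list was split, with 5 higher and 8 lower in KO and 4 higher and 8 lower in WT cultures. Of all genes tested, 11% were higher and 17% lower in KO, and 14% higher and 19.8% lower in WT cultures. Of the markers, Fcer1g, Ptprc, Lyz2 and Cd14 were called higher with Shh in both genotypes, and Cd68 in KO cultures only. Lyz2 averaged 771 in KO and 962 in WT cultures with Shh, against 232 and 267 untreated. P2ry12, a marker of resting microglia, was among those lower. Its log2 differences were at most -3.86 in KO and -4.07 in WT cultures (limma adjusted p = 6.47e-06 and 3.46e-06). Its signal averaged 3.18 in KO and 15.1 in WT cultures with Shh, and 3 arrays were below the floor. Both differences are thus bounds, and their order does not rank the genotypes.

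Endothelial markers (8 genes) summed to 258 to 297 in KO with Shh, 338 to 440 in WT with Shh, 4460 to 4614 in untreated KO and 3704 to 5105 in untreated WT cultures. All 5 tested were called lower with Shh in each genotype, against 17% of genes tested in KO and 19.8% in WT cultures. Fibroblast and meningeal markers (7 genes) summed to 471 to 494 in KO with Shh, 557 to 615 in WT with Shh, 2233 to 3015 in untreated KO and 1949 to 2598 in untreated WT cultures. Astrocyte and Bergmann glia markers (10 genes) summed to 25362 to 27760 in KO with Shh, 20998 to 22832 in WT with Shh, 47936 to 49283 in untreated KO and 44183 to 56791 in untreated WT cultures. Of these, 1 of 10, Gdf10, was called higher in KO than in WT cultures with Shh (log2 1.09, limma adjusted p = 0.0373), against 0.614% of genes tested. All 10 had a difference above 0 there (median log2 0.26), as had 6097 of 11405 genes tested. Without overlap 8 of the 10 were higher, against 18% of all 18193 genes. Oligodendrocyte lineage markers (8 genes) summed to 11524 to 14252 in KO with Shh, 10206 to 10783 in WT with Shh, 19574 to 25685 in untreated KO and 24138 to 27058 in untreated WT cultures. Of 7 tested, 3 were called higher in KO than in WT cultures with Shh, where 0.614% of genes were: Olig1 (log2 0.94, adjusted p = 0.0373), Sox10 (log2 1.28, adjusted p = 0.0239) and Cspg4 (log2 1.15, adjusted p = 0.00431). The list was split, with 5 of the 7 above 0 and 2 below it. Pdgfra averaged 3618 in KO and 4342 in WT cultures with Shh, and Mag 97.8 and 110. Markers of T and NK cells were all under the filter, with sums of 153 or less on every array. The part that these shifts have in the differences of the members was not tested.

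**Figure D5:**
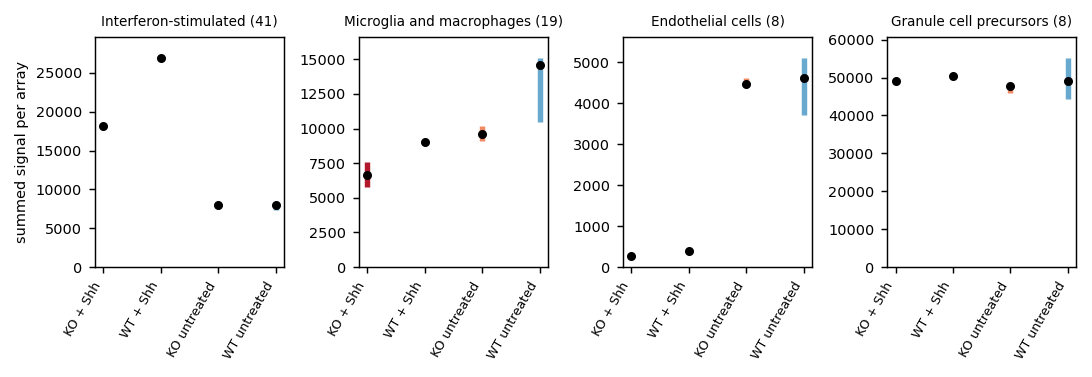
Summed signal per array for the 41 members, 19 microglia and macrophage markers, 8 endothelial markers and 8 granule cell precursor markers, on linear axes from 0, with bars from the lowest to the highest array of a group and dots at the median. The member sum is highest in WT cultures with Shh (26953 to 26960), the microglia sum is lowest in KO cultures with Shh (5746 to 7565), and the endothelial sum is 440 or less in both Shh groups.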

How the data were processed

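Total RNA (1.5 micrograms) of 10 primary cultures was hybridised to Affymetrix whole-genome mouse arrays, 1 array per culture. The authors deposited linear MAS5 signal intensity, computed with GCOS 1.2, per the submitters' processing notes. Every array of the deposited table, which held 45101 probe sets and no detection calls, had the same trimmed mean (500), and no further scaling was applied. MAS5 subtracts mismatch signal, which makes dim values noisy, and the number of arrays limits the precision.

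Gene names came from GEO's platform annotation, in which 34945 probe sets had 1 symbol, 932 had several and 9160 had none, and 34741 were matched to RefSeq's GRCm38.p6 annotation. The floor, the brightest probe set per gene and the filter (mean log2 of 6.25, a signal of 76.1) left 11405 of 18193 genes. All 10 arrays entered 1 fit of 4 group means with limma 3.58.1 in R 4.3.3 (6 residual and 3.11 prior degrees of freedom), two-sided, with Benjamini-Hochberg adjustment over all genes within each of 6 comparisons and a threshold of 0.05. SE is the model's standard error. Folds are ratios of geometric means of the signals after the floor was set. Where the dimmer group was at the floor on some or all arrays, the fold is a lower bound on that ratio. The script was tested on simulated data.

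The members, gene lists and tests were chosen with earlier results of these data known. Members were named with every array's value if they were called in any comparison, were among the 6 widest gaps without overlap between genotypes, or were Irf1, Irf7, Irf9 or Stat2. Others that are named, such as Ifit1, Ifit3, Mx2, Trim25 and Parp14, were chosen after their values were seen. No label pairs the cultures. Deviations from the group means correlated over genes by 0.120 to 0.278 between consecutively numbered untreated arrays (3 pairs, 1 of each genotype), and by -0.265 to 0.0529 between other untreated arrays of opposite genotype. With 2 arrays per Shh group the deviations mirror each other. The consecutive Shh pairs gave 0.160 and the others -0.160, which is only 1 value. A second fit took the consecutively numbered pairs as a replicate block, and its values are given where they change a call. For the genotype comparisons, their average and the interaction, the pairs were terms of the model. Each pair lay within 1 condition, so for the Shh comparisons the pairs entered only as a correlation between arrays (0.289). Other alternatives were another floor, an added constant of 16, quantile normalization, no filter, the mean of all probe sets, a trended prior, only the groups compared, and leaving out arrays.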

Additional observations from a re-analysis of the deposited data

Results flagged for a closer look

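Oas1a had opposite genotype differences in the 2 conditions on every array: the log2 difference (KO minus WT) was -0.58 with Shh (365 and 425 in KO, 599 and 578 in WT cultures) and 1.14 without Shh (96.9, 61.3 and 123 in KO, against 59.8, 54.7 and below the floor in WT cultures). The test of this difference, the interaction, gave a log2 difference of -1.72 (SE 0.61, limma adjusted p = 0.920) and was not called.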

How the results depend on the processing

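No alternative reversed the direction of a named difference, and 41 of 57 named differences kept both their direction and their side of the threshold under all alternatives run. When arrays were left out 1 at a time, 511 values kept their side of the threshold and 59 missed it, and under the other settings 482 kept it, 22 missed it and 3 newly passed it. The count of members lower in KO than in WT cultures with Shh (2) was 1 with the floor at the 10th percentile, 1 with the mean of all probe sets, and 0 with quantile normalization, with no filter or with only the groups compared, and without 1 array it was 0 to 1. For the average of both conditions the count of members lower in KO cultures (2) was 0 with no filter and 0 to 2 without 1 array, and the count higher (0) was 1 with no filter. The count higher in untreated KO cultures (0) was 1, Ifitm2, with no filter and with a trended, robust prior. With Shh, members called higher numbered 17 to 21 in KO and 17 to 22 in WT cultures without 1 array. The replicate block changed no call except those given for the average. Each pair lay within 1 condition, so the block could not take differences between pairs out of the Shh comparisons. Their unchanged calls are therefore no check on such differences. Omitting replicates 1 and 6 together, the arrays with a high 18S control, ended the calls of Lgals9 (KO against WT with Shh, adjusted p = 0.052), Ifit2 (Shh in KO, 0.0603) and Parp9 (average, 0.102) and let Oasl2 pass (KO against WT with Shh, 0.0466). The causes of these changes were not tested. Each Shh group had 2 arrays only. Signal below the floor also limits Oas3 and Mx2 (6 arrays each), Usp18, Ifit1 and Zbp1 (4 each), and Ifit3, Mx1 and Dhx58 (3 each). Their levels are bounds on those arrays.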
